A study of Bos taurus with 6 samples.

Results

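Endothelial cells line the blood and lymph vessels of a muscle. A list of 36 genes known from these cells was followed in steers of 2 breeds, in the muscle along the spine called longissimus dorsi. A gene was a member if it stood on the list and if at least 1 probe set of the array carried its symbol and no other. This held for 30 of the 36 genes, with 48 of the 24016 probe sets. ESAM, ICAM2, MMRN2, SOX17, PROX1 and ECSCR had no such probe set and were not analysed here. Each gene was read at its brightest probe set, by its mean log2(signal + 16). Of the 30 genes 28 passed the filter that left out the dimmest 25% of probe sets; FLT4 and ANGPT1 did not. In all, 8050 genes were tested, so the members made up 28 of 8050.

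The muscle came from 3 Japanese Black steers, a beef breed known for fat within the muscle, and 3 Holstein steers, a breed kept mainly for milk. All 6 animals were male and had been given feed rich in energy, and total RNA of each was put on 1 Affymetrix array. No age was given in the sources used here, and no steers on another feed were analysed. The breeds were therefore compared under a shared feeding, and the spread within a breed is the spread between 3 animals. The replicate numbers only name the animals.

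Vascular endothelial cells hold together through junctions built of VE-cadherin (CDH5), claudin-5 (CLDN5) and PECAM-1. Their growth and survival are set by ligands such as VEGFA and the angiopoietins, which act on the receptor tyrosine kinases KDR, FLT1, FLT4 and TEK. ERG and SOX18 are transcription factors of the endothelial programme. In skeletal muscle these cells form the capillaries that bring oxygen, glucose and fatty acids to the fibres, and they carry thrombomodulin (THBD) and the endothelial nitric oxide synthase NOS3 on or near their surface to keep blood fluid and vessels open.

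Most endothelial genes read somewhat lower in the muscle of Japanese Black steers, but no single gene passed the test. Of the 28 members tested 21 had a lower mean in Japanese Black and 7 a higher one. By comparison, 51.3% of all 8050 genes tested had a lower mean in Japanese Black. The median log2 difference, Japanese Black minus Holstein, was -0.26 over the members and -0.01 over all genes tested. These counts and medians are a description, since the genes of a list are not independent replicates. THBD, EGFL7, SOX18 and KDR were lower in every Japanese Black animal than in every Holstein animal, and 0 members were higher in every one. Such a separation toward lower values was found for 8.96% of all genes tested, and toward higher values for 10.2%. The share of separated members, 4 of 28, was near that background and is not a result about the members.

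No member passed an adjusted p of 0.05 in limma (two-sided, Benjamini-Hochberg over all 18012 probe sets tested). The adjusted p of the members lay between 0.321 and 0.989. The background was low: 0.0167% of all probe sets, 3 of 18012, and 0.0248% of genes at their brightest probe set, 2 of 8050, were called. At an unadjusted p under 0.05 there were 3 members, THBD, EGFL7 and ROBO4, all lower in Japanese Black, where 5.42% of all genes tested were lower at that level and 5.84% higher. The number of members called was 0 under every alternative run. In samples of whole muscle, fewer endothelial cells and less RNA per endothelial cell cannot be told apart.

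**Figure D1:**
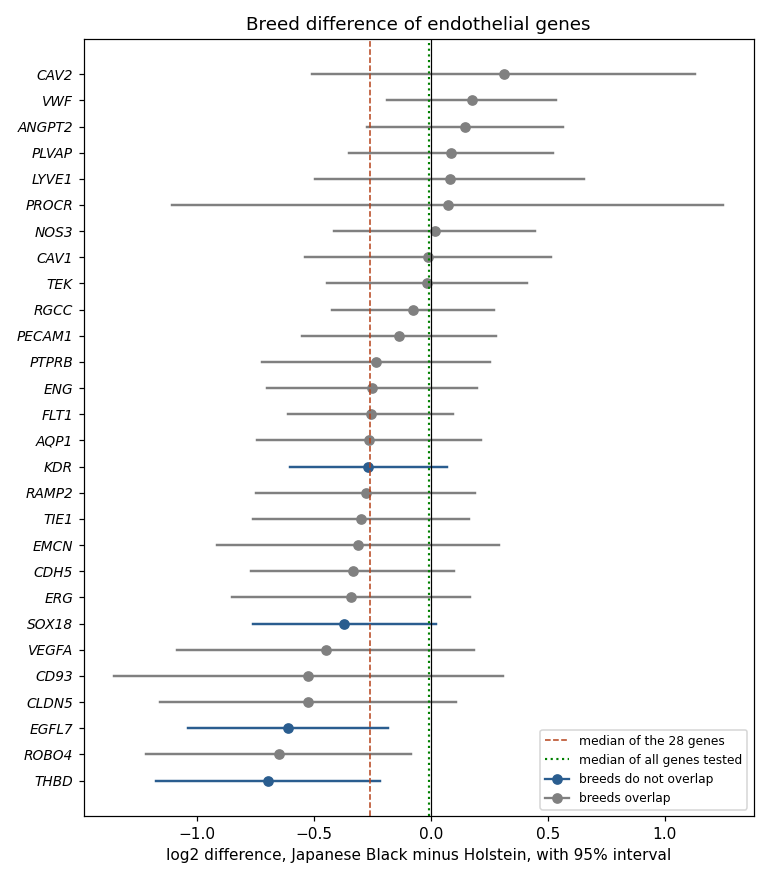
Log2 difference (Japanese Black minus Holstein, log2(signal + 16) scale) of the 28 endothelial genes tested, with 95% intervals from limma. The dashed line marks their median of -0.26 and the dotted line the median of all genes tested, -0.01; the intervals of THBD, ROBO4 and EGFL7 exclude 0, and the genes drawn in blue did not overlap between the breeds.

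The anticoagulant side of the endothelial surface held the member with the largest difference. THBD encodes thrombomodulin, which binds thrombin and turns it toward activation of protein C. Its signal was 428, 271 and 436 in Japanese Black 1, 2 and 3 and 659, 532 and 645 in Holstein 1, 2 and 3. The lowest Holstein animal thus lay above the highest Japanese Black animal. The means were 379 ± 93.1 (SD, n = 3) and 612 ± 69.7 (SD, n = 3). The log2 difference was -0.69 (SE 0.21, limma adjusted p 0.321), a 1.62-fold lower level in Japanese Black. It stayed between -0.81 and -0.48 when each animal was left out in turn.

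The other members of that group did not share the direction. PROCR, the endothelial protein C receptor, which works beside thrombomodulin, varied more between animals of a breed than any other member tested. It read 90.4, 369.8 and 222 in Japanese Black and 97.3, 178 and 367 in Holstein. Each breed thus held an animal with a low and an animal with a high level, and the ranges were almost the same. Its log2 difference was 0.07, with a 95% interval from -1.11 to 1.25. VWF, which encodes the von Willebrand factor that tethers platelets, is a classical marker of endothelium but was dim here. It read 23.9, 21.2 and 29.7 in Japanese Black and 17.6, 18.5 and 24.8 in Holstein. The breeds overlapped, and the difference of 0.17 (SE 0.16, limma adjusted p 0.650) pointed the other way from most members. NOS3 was dim as well, between 16.2 and 30.4, and its difference was 0.02 with an interval from -0.41 to 0.45.

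Among genes of the endothelial surface and its secreted factors, EGFL7 and ROBO4 stood lowest in Japanese Black. EGFL7 encodes a protein that endothelial cells secrete into the matrix around growing vessels. Its signal was 161, 114 and 175 in Japanese Black and 233, 226 and 243 in Holstein. The Holstein animals lay close together and all above the Japanese Black animals. On the log2 scale EGFL7 differed by -0.61 (SE 0.19, limma adjusted p 0.321). It ranged from -0.72 to -0.44 when single animals were left out. ROBO4 encodes a roundabout receptor found mainly on endothelium, where it stabilises the vessel wall. It read 99.7, 74.2 and 143 in Japanese Black and 162, 136 and 221 in Holstein. The breeds overlapped in a single pair, since Japanese Black 3 lay just above Holstein 2. The difference was -0.65 (SE 0.25, limma adjusted p 0.363).

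CD93, a lectin-like receptor of the endothelial surface, is the direct neighbour of THBD among the protein-coding genes of the RefSeq table (assembly ARS-UCD2.0). It had a log2 difference of -0.52 (SE 0.37), but its Holstein signals spread from 142 to 394. Without Holstein 1, the highest animal, the difference was -0.18. RAMP2, the partner of the adrenomedullin receptor, differed by -0.28, and ENG, a co-receptor for BMP ligands also called endoglin, by -0.25. RAMP2 was likewise highest in Holstein 3, and without that animal its difference was -0.09. For ENG, Holstein 3 read 72.5 against 38.5 to 44.4 in the other animals, and without Holstein 3 the difference was -0.05. RGCC, a cell cycle regulator found in endothelium, read between 735 and 914 with a difference of -0.08. LYVE1, a hyaluronan receptor that marks lymphatic endothelium, had a difference of 0.08 (interval -0.49 to 0.66) at its brightest probe set. Its other probe set gave -0.21, so the sign of LYVE1 was not settled.

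Junction and adhesion genes all had a lower mean in Japanese Black, 4 of 4 measured, with a median of -0.32. CLDN5, the sealing protein of endothelial tight junctions, read 963, 461 and 876 in Japanese Black and 1133, 841 and 1243 in Holstein. Japanese Black 2 had less than any other animal, and the remaining animals of the breeds overlapped. CLDN5 differed by -0.52 (SE 0.28, limma adjusted p 0.457). Without Japanese Black 2 it was -0.20. CDH5, the cadherin of endothelial adherens junctions, read 412, 324 and 404 in Japanese Black and 568, 388 and 504 in Holstein. Only Holstein 2 fell within reach of the Japanese Black animals. The difference of CDH5 was -0.33 (SE 0.19, limma adjusted p 0.483) and that of its dimmer probe set -0.13. Without Holstein 1 it was -0.22.

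PECAM1, an adhesion molecule of all endothelium, differed little. Its signal was 596, 561 and 836 in Japanese Black and 693, 773 and 697 in Holstein. The Japanese Black animals lay on both sides of the Holstein animals. The log2 difference was -0.14, with a 95% interval from -0.55 to 0.28 (limma adjusted p 0.765), and the second probe set gave -0.11. Without Japanese Black 2 it was -0.03. EMCN, a sialomucin of capillaries and veins, had -0.31 and -0.11 at its probe sets. As with CLDN5, its lowest signal was that of Japanese Black 2, 294 against 424 to 644 elsewhere, and without that animal the difference was -0.03.

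**Figure D2:**
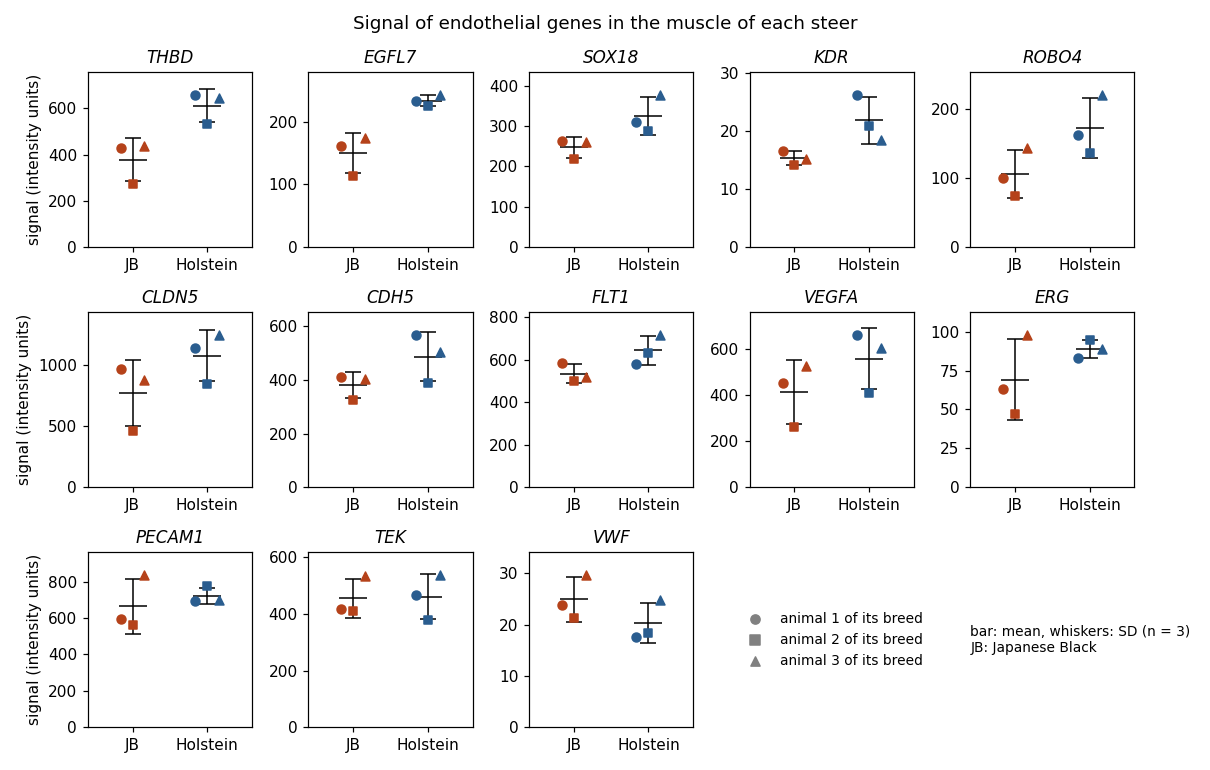
Signal (intensity units, linear axis from 0) of 13 endothelial genes in each steer, Japanese Black in orange and Holstein in blue; bars are means and whiskers SD (n = 3). THBD, EGFL7, SOX18 and KDR do not overlap between the breeds, while PECAM1, TEK and VWF do.

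The receptor kinases and the phosphatase that acts on them were lower on average in Japanese Black in 5 of 5 genes tested, with a median of -0.26. FLT1, a VEGF receptor that also acts as a decoy, read 587, 503 and 518 in Japanese Black and 581, 634 and 718 in Holstein. The overlap was that of Japanese Black 1 with Holstein 1. The difference was -0.26 (SE 0.16, limma adjusted p 0.504). KDR, the main signalling receptor for VEGFA, was dim. It read 16.7, 14.2 and 15.2 in Japanese Black and 26.3, 20.9 and 18.4 in Holstein. All Holstein animals lay above all Japanese Black animals. The difference was -0.27 (SE 0.15, limma adjusted p 0.476), but at such signals the offset sets its size: adding 1 in place of 16 gave -0.47, and adding 64 gave -0.11. A second KDR probe set, dimmer still and not tested, pointed the other way, with 0.46 and a reading of 0.11 in Holstein 3.

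TEK, the receptor of the angiopoietins, was among the members with the smallest differences. It read 417, 411 and 533 in Japanese Black and 468, 377 and 537 in Holstein. The breeds covered almost the same range. The difference was -0.02, with a 95% interval from -0.44 to 0.41, and it was positive after median centring. TIE1, the orphan partner of TEK, was dim and differed by -0.30 (SE 0.20), or by -0.12 without Holstein 1. PTPRB, a phosphatase that damps TEK and CDH5 signalling, differed by -0.23 (SE 0.21), with its highest signal in Japanese Black 1; without Japanese Black 2 it was -0.08. FLT4, the VEGF receptor of lymphatic endothelium, read 6.12 to 18.3 in Japanese Black and 12.6 to 36.4 in Holstein and was too dim to be tested.

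The ligands of these receptors are made in large part by cells other than endothelium. VEGFA, which muscle fibres secrete, read 455, 260.0 and 527 in Japanese Black and 662, 409.9 and 606 in Holstein. The lowest animal was again Japanese Black 2, and Holstein 2 lay below Japanese Black 1 and 3. The log2 difference was -0.45 (SE 0.28, limma adjusted p 0.512) and -0.22 at the dimmer probe set. Without Japanese Black 2 it was -0.16. ANGPT2, which endothelial cells release as a context-dependent antagonist of TEK, had a difference of 0.15 with an interval from -0.27 to 0.56, and of 0.03 without Holstein 3. ANGPT1, the agonist of TEK made by cells around the vessel, read 7.90 to 15.9 in all animals and was not tested.

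Both transcription factors measured had lower means in Japanese Black. SOX18, which acts in early vessel and lymphatic formation, read 264, 218 and 261 in Japanese Black and 310.1, 288 and 378 in Holstein. The breeds did not overlap. SOX18 differed by -0.37 (SE 0.17, limma adjusted p 0.419), within -0.45 to -0.26 when single animals were left out. ERG, an ETS factor that keeps the endothelial programme on, read 62.9, 46.8 and 97.9 in Japanese Black and 83.0, 94.5 and 88.9 in Holstein. Japanese Black 3 held the highest ERG signal of all and Japanese Black 2 the lowest. The difference was -0.34 (SE 0.22, limma adjusted p 0.529). Leaving out Japanese Black 2 gave -0.14, and leaving out Japanese Black 3 gave -0.57.

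Genes of caveolae and of transport across the endothelium had no common direction, with 2 of 4 lower and a median of 0.04. CAV1 and CAV2 encode the caveolins that shape caveolae, and they lie next to each other in the RefSeq gene order. CAV1 read 2996, 3494 and 5739 in Japanese Black and 4371, 4283 and 3291 in Holstein, with a difference of -0.01 (interval -0.54 to 0.52). CAV2 differed by 0.31 (SE 0.36), a value that turned to -0.13 without Japanese Black 3. Both caveolins were highest in Japanese Black 3, and both were lowest of the Holstein animals in Holstein 3. The water channel gene AQP1 had -0.26, -0.20 and -0.52 at its probe sets, the last of these too dim to be tested. At the brightest it was -0.08 without Holstein 3. PLVAP, the protein of the diaphragms that span endothelial pores, differed by 0.09 with an interval from -0.35 to 0.52.

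Signs were also compared at the second probe sets. They read the same RNA on the same arrays, so they give no independent check of the breed difference. Of the 30 annotated members 15 had more than 1 probe set, and in 10 of these all probe sets shared a sign. Those 10 include genes with probe sets too dim to be tested. Among the 9 genes with at least 2 tested probe sets the sign was shared in 7, the exceptions being CAV2 and LYVE1. Taking the mean over all tested probe sets of a gene, 22 of 28 members were lower and the median was -0.23. This mean includes the brightest probe set and can differ from it only in those 9 genes.

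The difference between the breeds was similar in size to the spread within them. The median SD between animals of a breed, pooled over the breeds, was 0.28 log2 units over the members and 0.22 over all genes tested. The breed difference exceeded this pooled SD in 12 of 28 members, or 42.9%. The share among all genes tested was 42.9% too. Japanese Black animals spread more than Holstein animals in 12 members and less in 16.

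Japanese Black 2 stood apart from the other animals of its breed. It had the lowest signal of all 6 animals in 17 of 28 members, or 60.7%, and the lowest of its breed in 20. Over all genes tested it was the lowest animal in 19.3% and the lowest of its breed in 36.4%. Japanese Black 3 was the highest of its breed in 18 members, or 64.3%, against 53.2% of all genes tested. It was the lowest of all animals in 0 members, against 12.4% of all genes tested. Holstein 3 lay above the mean of the 6 arrays in 24 members and Holstein 1 in 20. Over all genes tested they did so in 54.3% and 49.1%. On average over the members, the log2 signal stood 0.14 below the mean of the arrays in Japanese Black 1, 0.30 below it in Japanese Black 2 and 0.11 above it in Japanese Black 3. In the Holstein animals it was 0.14, -0.01 and 0.20. The breeds thus overlapped on this measure, because Japanese Black 3 lay above Holstein 2. Over all genes tested Japanese Black 3 also stood 0.10 above the mean of the arrays.

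**Figure D3:**
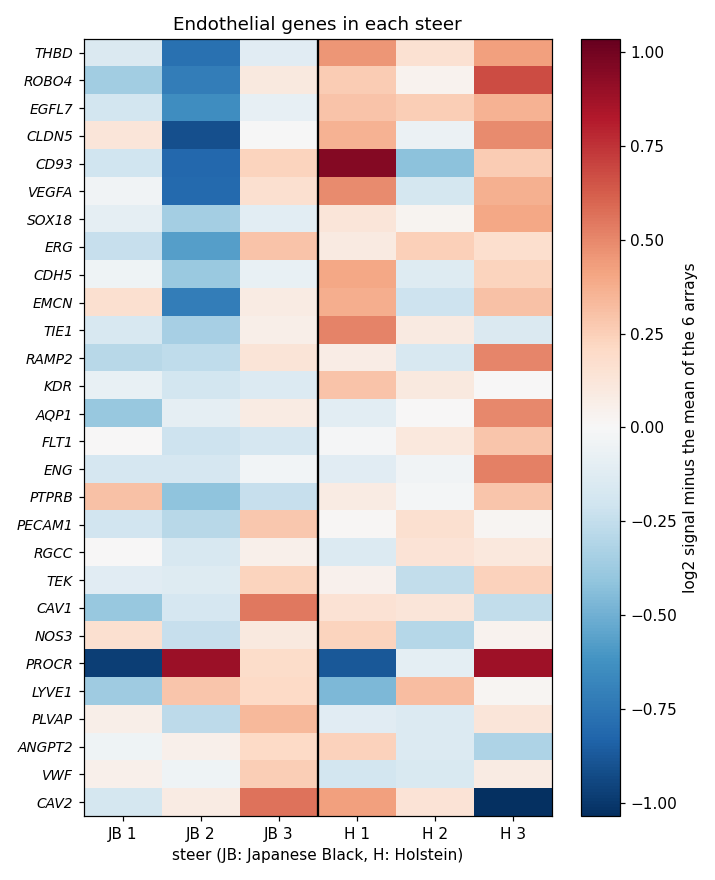
Log2 signal of each endothelial gene in each steer minus the mean of the 6 arrays, genes in the order of their breed difference. The column of Japanese Black 2 is the lowest in 17 of 28 genes, and PROCR and CAV2, with the widest spread within a breed, run against the rest in several animals.

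The median of the members moved with the animals included. It was -0.18 without Japanese Black 2 and -0.15 without Holstein 3, against -0.26 with all animals. The count of lower members was 21 of 28 in both of these fits and 26 of 29 without Japanese Black 3. The number of separated members, 4 with all animals, was 10 without Japanese Black 3 and 10 without Holstein 2. With an animal fewer, separation is also more common among all genes: its share toward lower values was 20.8% and 17.0% in those fits. With an offset of 64 in place of 16 the median of the members was -0.17.

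The muscle identity of the samples was checked with 15 fibre genes, of which 11 were measured, among them ACTA1, CKM, MB, MYH1 and MYH7. Their summed signal was 139322 to 147170 in Japanese Black and 143932 to 145235 in Holstein. Averaged over the list, the animals stayed within 0.06 log2 units of their mean. Single fibre genes went both ways, 5 lower and 6 higher in Japanese Black, from -0.34 (ACTN3) to 0.09 (ACTA1). No endothelial member was listed at 0 in any array, although the defining marker VWF was dim. The median signal of an array was 48.5 to 54.7 intensity units and its upper quartile 172 to 181, except for 205 in Japanese Black 3. Of the bacterial and phage spike-in controls some separated the breeds and some did not. The BioC controls averaged 752 to 852 in Japanese Black and 873 to 1312 in Holstein, and the BioDn controls 2480 to 2726 and 2840 to 3873, without overlap. The BioB controls, 273 to 329 and 319 to 494, and the CreX controls, 10300 to 12029 and 11101 to 12859, overlapped. These averages took part of the control probe sets, and single probe sets differed. BioDn-5 overlapped, with 2388 in Japanese Black 3 and 2302 in Holstein 1. The r2-Ec-bioB-3 control, not in the averages, read 322 to 350 in Japanese Black and 353 to 587 in Holstein. The part of the spike-in controls in the lower endothelial signals was not tested.

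Markers of other cells around the vessels were measured in the same arrays. Fibroblast and progenitor markers were lower in Japanese Black in 9 of 11 genes with a median of -0.31. Their summed signal was 9636 to 15442 in Japanese Black and 13510 to 14181 in Holstein, and 0 of them were at 0. Like the endothelial genes they were lowest in Japanese Black 2, 0.42 below the mean of the arrays; their part in the endothelial difference was not tested. Smooth muscle and pericyte markers, the cells that wrap vessels, had 8 of 11 lower, a median of -0.09 and summed signals of 5260 to 15670 against 6158 to 11599. Like the endothelial genes they were lowest in Japanese Black 2, 0.50 below the mean of the arrays. Their highest levels were those of Japanese Black 3 and Holstein 2, whereas Holstein 2 had the lowest endothelial level of its breed.

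Adipocyte markers spread far more between animals, with a median within-breed SD of 1.14, and 2 of 8 were lower. Their summed signal ran from 2960 to 13363 in Japanese Black and from 2004 to 10388 in Holstein. Leukocyte and macrophage markers had 4 of 8 lower, with sums of 497 to 791 and 559.8 to 820.3, and they too were lowest in Japanese Black 2, 0.28 below the mean of the arrays. Erythrocyte markers had 4 of 5 lower, with a median of -0.22 and sums of 3707 to 4935 and 3350.2 to 4065. These sums were mostly GYPC, the only tested marker of that list with a higher mean in Japanese Black (0.30). SLC4A1, not tested, was listed at 0 in 2 arrays. The Schwann cell and nerve list held 3 genes, 2 of them lower. The other gene, S100B, differed by 0.91 (SE 0.26, limma adjusted p 0.313). The sums of this list, mostly S100B, were 1482.5 to 2863 in Japanese Black and 1027 to 1483.7 in Holstein. The part of these cells in the endothelial values was not tested.

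**Figure D4:**
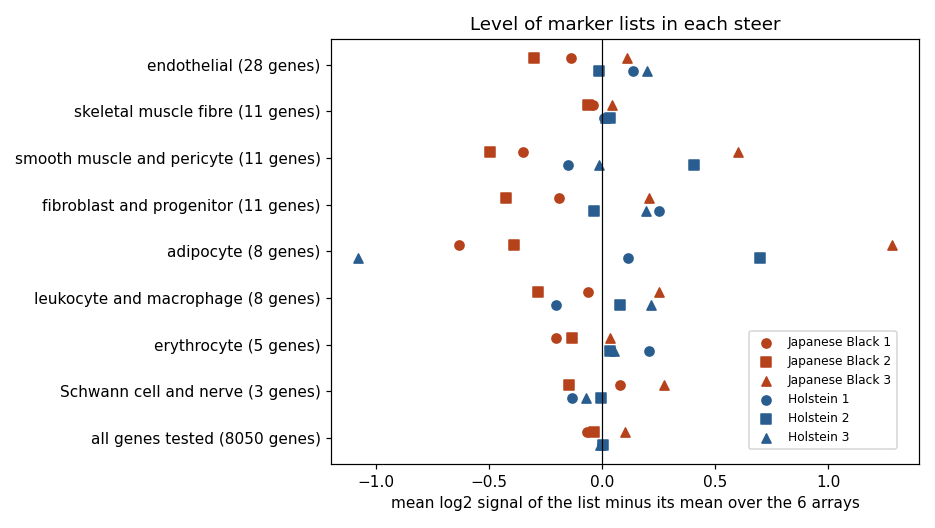
Mean log2 signal of each marker list in each steer minus its mean over the 6 arrays, Japanese Black in orange and Holstein in blue. The endothelial list lies between -0.30 and 0.20 and its breeds overlap; the adipocyte list has the widest spread.

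Genes that act with the members were taken from 7 lists of vessel signalling, none of them a member. Of 106 genes on these lists 73 were annotated and 70 tested. A lower mean in Japanese Black was found for 49 of 70, with a median log2 difference of -0.17. The breeds did not overlap for 14 toward lower and 4 toward higher values, against 8.96% and 10.2% of all genes tested. No gene passed the adjusted p of 0.05.

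The BMP and endoglin system had the lowest median of these lists. Endothelial cells read BMP ligands through the receptor ACVRL1 with endoglin, SMAD proteins carry the signal to the nucleus, and ID1 and ID3 are among its targets. Of 7 genes tested 6 were lower, with a median of -0.46. In 4 the breeds did not overlap, toward lower values, as in 8.96% of all genes tested. TGFBR2 (-0.26), ID2 (-0.10) and BMPR2 (0.21) overlapped between the breeds. Which cells of the muscle gave these signals was not tested. ID3 read 490.1, 484 and 668 in Japanese Black and 760.3, 783 and 918 in Holstein, a difference of -0.58 (SE 0.18, limma adjusted p 0.321). ID1 read 1481, 1426 and 1482 against 1620.1, 2363 and 2576, with a difference of -0.55 (SE 0.18, limma adjusted p 0.336). The Japanese Black animals lay close together for ID1, below all Holstein animals.

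SMAD5, a signal carrier of BMP receptors, differed by -0.47 (SE 0.15, limma adjusted p 0.330) at its brighter probe set and by -0.02 at the other. ACVRL1, named here after its values were seen, read 151, 160 and 143 in Japanese Black and 214, 203 and 224 in Holstein. Its difference was -0.46 (SE 0.15, limma adjusted p 0.336), and its animals were close together within each breed. The median of the list stayed between -0.50 and -0.40 when single animals were left out, and was -0.28 with an offset of 64.

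**Figure D5:**
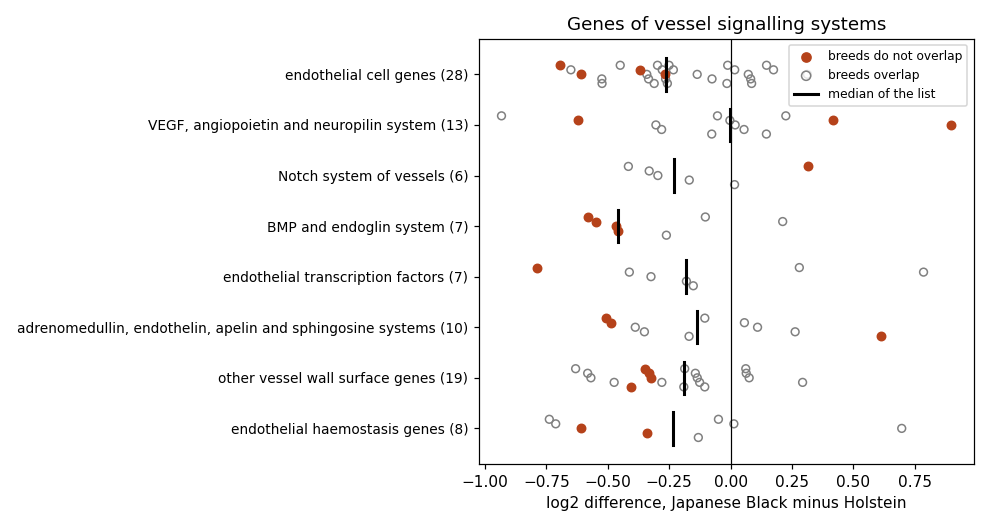
Log2 difference (Japanese Black minus Holstein) of the 28 endothelial genes and of the genes tested in 7 lists of vessel signalling; each point is a gene, filled where the breeds do not overlap, and the bar is the median of the list. The BMP and endoglin list has the lowest median, -0.46, and the VEGF list the one nearest 0.

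The VEGF, angiopoietin and neuropilin list showed no common direction, with 7 of 13 genes lower and a median of -0.003, whose sign turned when single animals were left out (-0.19 to 0.07). PGF, a ligand of FLT1, read 20.7, 33.3 and 27.1 in Japanese Black and 37.8, 43.5 and 72.8 in Holstein. Its difference was -0.62 (SE 0.22, limma adjusted p 0.347). It depended on the offset, with -0.87 at 1 and -0.33 at 64. ANGPTL4 and EGLN1 were higher in Japanese Black without overlap. ANGPTL4, an inhibitor of lipoprotein lipase rather than a ligand of TEK, differed by 0.90 (SE 0.16, limma adjusted p 0.148). EGLN1, the oxygen sensor that marks HIF proteins for breakdown, read 3199, 3295 and 3402 against 2646, 2882 and 1963, a difference of 0.42 (SE 0.16). Its other probe sets gave 0.19 and 0.21.

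Among peptide and lipid mediators the members of the list went both ways. ADM encodes adrenomedullin, a vessel-widening peptide whose receptor has RAMP2 as a partner. It read 671, 729 and 820.3 in Japanese Black and 410.3, 541 and 486 in Holstein, without overlap. The log2 difference was 0.61 (SE 0.17, limma adjusted p 0.307). RAMP2 had -0.28, or -0.09 without Holstein 3. RAMP3 and CALCRL, of the same list as ADM, had 0.26 and 0.11, with the breeds overlapping. S1PR1, a sphingosine phosphate receptor of endothelium, differed by -0.51 (SE 0.15, limma adjusted p 0.321) at the brighter and by 0.11 at the dimmer probe set. EDNRA, the endothelin receptor of smooth muscle, differed by -0.49 (SE 0.18), with -0.71 and -0.25 at offsets of 1 and 64. The list as a whole had 6 of 10 lower and a median of -0.14.

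Endothelial transcription factors beyond the members had 5 of 7 lower and a median of -0.18. ETS1, of the same family as ERG, read 61.9, 75.0 and 83.1 in Japanese Black and 202, 90.1 and 140.0 in Holstein. All Japanese Black animals were lower, and the difference was -0.79 (SE 0.26, limma adjusted p 0.330). The other ETS1 probe sets, dimmer, gave -0.29 and -0.31. ETS2 lies next to ERG in the RefSeq gene order but differed the other way, by 0.79 (SE 0.29, limma adjusted p 0.354), with 0.13 at its second probe set. MEF2C, which muscle fibres express as well, differed by -0.41 (SE 0.28).

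In the remaining lists most means were lower in Japanese Black. In the Notch system 4 of 6 genes were lower (median -0.23); DLL4, the Notch ligand of sprouting tip cells, differed by -0.42 (SE 0.20), NOTCH4 by -0.33 and NR2F2, a factor of venous identity, by 0.32. Other surface genes of the vessel wall had 15 of 19 lower (median -0.19). JAM2, a junction protein, differed by -0.58 (SE 0.24), CD34, an antigen of capillary endothelium and progenitors, by -0.57 (SE 0.26) and the guidance receptor ROBO1 by -0.63 (SE 0.28). All 3 were lowest in Japanese Black 2, and their list's median was -0.07 without that animal. Haemostasis genes had 6 of 8 lower (median -0.24). PLAT and PLAU, which activate plasminogen, differed by -0.61 (SE 0.21) and -0.74 (SE 0.32), while MMRN1, a multimerin of platelets and endothelium, differed by 0.70 (SE 0.32). The limma adjusted p of these 9 genes lay between 0.346 (PLAT) and 0.490 (NOTCH4). The haemostasis median was -0.07 without Holstein 1.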

How the data were processed

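The authors deposited linear intensities, 1 for each of 24128 probe sets on each array. They were made with GCOS 1.1.1 and with Affymetrix Expression Console 1.1, per the submitters' processing notes. How probes were summarised and to what target arrays were scaled is not given in the sources used here. All 112 control probe sets were left out, log2 was taken of the signal plus an offset of 16, and the dimmest 25% by mean log2 were dropped, so that 18012 were tested. The test set the breeds against each other without pairing in limma 3.58.1 (R 4.3.3; lmFit, eBayes, trend on; two-sided). Adjustment by Benjamini-Hochberg ran over all 18012, at a threshold of 0.05. The moderated variance behind standard errors and 95% intervals came with 4.91 prior degrees of freedom. Gene symbols came from the platform annotation; all 30 members matched a RefSeq gene identifier. The gene order came from the RefSeq table (assembly ARS-UCD2.0), and coordinates are left out.

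The members and all lists were chosen with earlier results of these data known. Values per animal are given for members without overlap, for the 10 with the smallest p and for PECAM1, VWF, CDH5, KDR, TEK and VEGFA, and up to 3 genes with the smallest p are named per signalling list; PROCR and CAV1 were added after their values were seen. Alternatives were other offsets, filters, normalizations, variance models and probe set rules, and leaving out each array; those for the signalling lists were added after seeing the data. With 6 arrays, precision is limited by their number. Before use, the limma fit was tested on simulated data with normal noise. It called 2.8% of simulated log2 differences of 0.5 and 42.8% of those of 1. Differences of the members' size were thus mostly missed there, so 0 members called does not show that they are equal. Figures used matplotlib 3.10.9 in Python 3.11.15.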

Additional observations from a re-analysis of the deposited data

How the results depend on the processing

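The number of members called stayed at 0 under all alternatives run. The count of lower members, 21 of 28 in the main fit, ran from 18 of 21 (dimmest 50% left out) to 26 of 29 (without Japanese Black 3). With median centring it was 19 of 28. The share of all genes tested with a lower mean moved too, from 46.5% (without Japanese Black 1) to 57.4% (without Japanese Black 3). The median of the members stayed negative, from -0.31 (without Japanese Black 3) to -0.15 (without Holstein 3). The number of separated members ranged from 4 to 10 when single animals were left out. In these fits 10.9% to 20.8% of all genes tested were separated toward lower values, against 8.96% with all animals. The 3 probe sets called in the whole table were 0 with an offset of 1, 0 with the dimmest 50% left out, 0 with a plain t-test (0 after Benjamini-Hochberg adjustment) and 10 with array weights; leaving out single animals gave 0 to 15. Quantile normalization moved the median of all genes to -0.04. TEK and CAV1 changed sign with median centring, PROCR with quantile normalization, and LYVE1 with the mean over probe sets. When single animals were left out, 21 of the 28 members tested kept their sign in all fits. TEK, CAV1, CAV2, PROCR, NOS3, PLVAP and LYVE1 did not. Signals near the offset (KDR, TIE1, VWF, NOS3, PGF, EDNRA) have differences whose size the offset sets. Other dim genes also moved between offsets of 1 and 64. These were ROBO1 (-0.86 and -0.35), SMAD5 (-0.59 and -0.28) and S1PR1 (-0.62 and -0.33), among others. Of the members, ANGPT2 (0.21 and 0.07) and ENG (-0.32 and -0.15) moved as well. No paired analysis was possible because no label pairs an animal of one breed with one of the other, although the series design names a paired test. Arrays numbered 6, so intervals were wide: the smallest standard error of a member was 0.15.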
